A study of Nothobranchius furzeri with 12 samples.

Results

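The last age step of a killifish series was examined: 3 male turquoise killifish of 6.0 months against 3 males of 4.5 months, 6 of the 12 animals sequenced, all chosen by their age label. The 3 fish of 3.0 months and the 3 fish of 1.5 months, also male, gave the earlier levels against which each change was placed. RNA came from the neural retina with the retinal pigment epithelium (RPE) left on it, after cornea, lens, iris, sclera and choroid had been dissected off. It was read in bulk, so each library mixes all cells of that tissue. Every fish at every age was untreated and belonged to the same background, labelled a GRZ backcross mutant line (GRZ is a short-lived killifish strain). The labels neither name the mutated gene nor say which fish carried the mutation, so genotype and age cannot be told apart where carriers were spread unevenly. A tag in their names, Resub, which no label explains, marks 2 of the 3 libraries of 4.5 months (replicates 2 and 3), and the time of day of dissection was not given in the sources used here. Nothing in the labels ties the fish of a replicate number together. The p-values below set each difference against the spread between animals of the same age, shared across genes and over all 12 libraries.

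Rods and cones catch light in outer segments, which are stacks of membrane discs packed with opsin. Light-activated opsin switches on the G protein transducin, transducin releases the brake on phosphodiesterase 6, and the fall in cyclic GMP closes cation channels; recoverin and the RGS9 complex end or tune the response. The discs are renewed throughout life, their rims are held by the tetraspanins peripherin 2 and Rom1, and opsin and membrane travel to them through a connecting cilium. The RPE behind the photoreceptors takes up shed discs and regenerates the visual pigment.

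Depth was similar in both ages, with 41.15, 46.91 and 46.49 M counts in the fish of 6.0 months against 46.98, 49.88 and 50.02 M in those of 4.5 months, and 34.44 to 50.27 M over all 12 libraries. Lens genes stood apart in 3 libraries: the sum over the list was 25471 CPM (read counts scaled to TMM-adjusted library size) in replicate 1 of 6.0 months. At 4.5 months replicate 1 had 2681 CPM, at 1.5 months replicate 2 had 1188 CPM, and the 9 others had 57.89 to 123.8 CPM. Cytosolic ribosomal protein genes split the libraries as well, with 47888, 25365 and 41351 CPM in replicates 1, 2 and 3 of 6.0 months against 59443, 25582 and 24223 CPM in those of 4.5 months. The Resub libraries and 6.0 months replicate 2 shared the low level. Among the younger fish, replicate 2 of 3.0 months was lower still at 18701 CPM, and the others had 40140 to 54514 CPM. Melanin and pigment cell genes were low in the same libraries. They summed to 2554, 1057 and 2761 CPM at 6.0 months against 2868, 1573 and 1658 CPM at 4.5 months. Replicate 2 of 3.0 months had 1135 CPM of them. Whether the share of RPE in a sample had a part in the results was not tested. The tissue label was met by its defining markers, with at least 1347 CPM of rod transducin gnat1, 1847 CPM of cone transducin gnat2 and 1959 CPM of rpe65 in each of the 6 libraries. The entry named rho, the symbol of rod opsin, read only 0.5461 to 1.042 CPM in them, so rods were followed through other genes.

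Between 6.0 and 4.5 months, 124 of 20717 tested genes passed edgeR's quasi-likelihood test at a Benjamini-Hochberg adjusted p under 0.05, which is 0.599% of all genes. Of these, 88 were lower (0.425% of all genes) and 36 higher (0.174%) at 6.0 months, while the median change over all genes was 0.00 on the log2 scale. The falls ran from 0.48 to 2.62 in log2 size and 34 of them were at least 2-fold; the rises ran from 0.67 to 2.59 and 13 were at least 2-fold. In all 124 genes the fish of 6.0 months did not overlap those of 4.5 months, a pattern that 11.1% of all genes showed in the lower and 9.97% in the higher direction. A symbol was available for 76 of the falls and 24 of the rises, and the rest carried a locus number only.

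How many genes passed depended heavily on which libraries were in the fit. Without 6.0 months replicate 1, the library with the most lens RNA, edgeR called 0 genes, with 2641 at an unadjusted p under 0.05 against 3429 (16.6% of all genes) with all libraries. It called 39 without replicate 2 and 45 without replicate 3 of 6.0 months. Leaving out 4.5 months replicate 1 gave 1137 calls, leaving out replicate 2 gave 3 and leaving out replicate 3 gave 1. Without replicate 1 only the Resub libraries were left at 4.5 months, so tag and age cannot be told apart in that fit. Without replicates 1, 2 and 3 of 3.0 months in turn the count was 36, 302 and 38, and without those of 1.5 months it was 56, 58 and 31. Without both Resub libraries, which leaves 1 fish at 4.5 months whose spread is taken to be like that of the other ages, and in a fit of the 6 libraries alone, edgeR called 0 genes, with 2764 and 2805 at an unadjusted p under 0.05. DESeq2 on all 12 libraries called 1222 genes, among them all 124. Every call below was therefore lost in at least 1 of the 12 fits that leave out a library. All 124 genes stayed at an unadjusted p under 0.05 in each of these fits, in the 6-library fit and without the lens libraries. These fits reuse libraries by which the genes were chosen, so this is no separate support. In 34 genes the call held in at least 6 of the 12 fits, and in 3 genes it held in at least 10.

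The 88 falls were of different kinds when set against the younger fish. In 51 of them, 58% of the falls, all 3 fish of 6.0 months lay below all 6 fish of 1.5 and 3.0 months, so these were new lows. Beside that, 334 of all tested genes (1.61%) had their 3 lowest fish at 6.0 months. In 13 falls, 14.8%, all 3 fish of 4.5 months lay above all 6 younger fish and the mean at 6.0 months was back within the younger range, a pattern held by 2.47% of all genes. The other 24 fitted neither description. New lows had a median change of -0.92 on the log2 scale against 4.5 months and of -0.56 against the average of 1.5 and 3.0 months, while returns had -0.71 and -0.15. The 36 rises divided the other way: 23 of them, 63.9%, were returns from a low at 4.5 months, 7 were new highs and 6 were neither. Of all genes, 2.96% had the pattern of a rising return and 1.4% had all 3 highest fish at 6.0 months. In 43 of the 88 falls all 3 fish of 4.5 months exceeded all younger fish. Of the 51 new lows, 18 had such a peak. The share of all genes with such a peak was not taken, and a call as lower than at 4.5 months favours a high level there. The fish that make a gene a call also place it in a class, so these counts describe the calls and are no separate test. By tests against the average of the younger ages in the same fit, 16 falls passed as lower and 3 rises passed as higher at 6.0 months. In 31 falls and 25 rises the level at 4.5 months passed but that at 6.0 months did not. Failing to pass does not show a return. The 31 include kera, with a log2 change of -0.87 at 6.0 months (edgeR adjusted p = 0.243), whose oldest fish all lay below the younger fish. New lows and new highs are named below by the position of the fish, whether or not the test against the younger average passed.

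**Figure D1:**
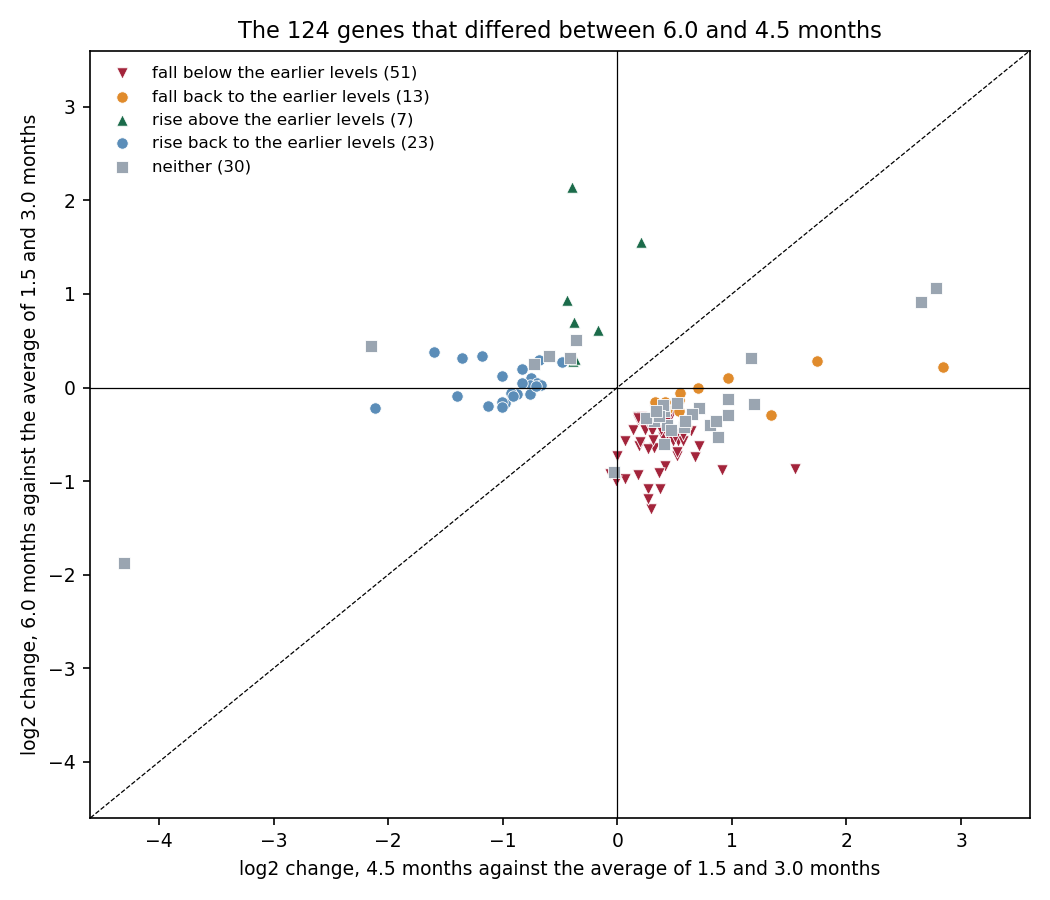
Each of the 124 genes is placed by its log2 change at 4.5 months (horizontal) and at 6.0 months (vertical) against the average of 1.5 and 3.0 months; the dashed diagonal marks equal levels at 6.0 and 4.5 months. New lows (51, red triangles) lie below 0 on the vertical axis, falling returns (13, orange) and rising returns (23, blue) lie near 0 on it, and the 7 new highs (green) lie above it.

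Rod photoreceptor genes made the clearest group. Of the 28 tested members of the rod list, 6 fell past the threshold (gnat1, pde6g, rcvrna, rgs9bp, rom1 and rom1a) and 0 rose, against 0.425% and 0.174% of all genes. All 6 were new lows by the position of their fish. Against the average of the younger ages, only rom1a passed at 6.0 months (edgeR adjusted p = 0.0368). For the others edgeR adjusted p was 0.067 (gnat1 and rom1), 0.0691 (pde6g), 0.124 (rgs9bp) and 0.185 (rcvrna). The list's median change was -0.99 on the log2 scale, and 25 of 28 members had a value under 0. In 19 (67.9%) the fish of 6.0 months all lay below those of 4.5 months, against 11.1% of all genes. In 9 members (32.1%) the fish of 6.0 months were the 3 lowest of all 12, against 1.61% of all genes. Summed over the list, RNA came to 9616, 9018 and 12191 CPM at 6.0 months against 17192, 22687 and 21410 CPM at 4.5 months. The younger fish ranged from 14042 to 18694 CPM. Some members, such as rom1, rom1a and crx, are not particular to rods. Of these, rom1 and rom1a are counted again in the list of outer segment and connecting cilium genes. In bulk RNA, fewer cells and less RNA per cell cannot be told apart. The rod calls depended on single libraries: in the 12 fits without 1 library, the call of rom1a held in 8, those of rgs9bp and rom1 in 4 each, those of gnat1 and rcvrna in 3 each and that of pde6g in 2. Without the Resub libraries the median of the list was -0.52.

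The gene gnat1 encodes the transducin subunit that rhodopsin activates in rods. It read 1612, 1347 and 2395 CPM at 6.0 months against 3344, 4968 and 4623 CPM at 4.5 months, with means of 3337 CPM at 1.5 and 3369 CPM at 3.0 months. All 3 oldest fish were below every other animal, and the fall was -1.27 ± 0.23 on the log2 scale (SE, n = 3 fish per age; edgeR adjusted p = 0.0404). The gene pde6g, for the inhibitory subunit that transducin pulls off phosphodiesterase 6, fell to 702.8, 719.7 and 866.1 CPM in the fish of 6.0 months, against 1174, 1738 and 1595 CPM in those of 4.5 months. For pde6g the log2 change was -0.98 ± 0.17 (edgeR adjusted p = 0.0372). Its means had been 1203 CPM at 1.5 and 1196 CPM at 3.0 months, so the younger means sat between those of 4.5 and 6.0 months, while replicate 1 of 4.5 months lay among the younger fish.

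Among genes whose products shut off or tune the rod response, rcvrna and 1 entry of rgs9bp fell. The recoverin gene rcvrna, whose calcium-binding product restrains rhodopsin kinase, read 189.1, 127 and 232.7 CPM at 6.0 months against 327.7, 433.1 and 402.5 CPM at 4.5 months. For rcvrna the log2 change was -1.08 ± 0.20 (edgeR adjusted p = 0.0404). For rgs9bp, the membrane anchor of RGS9, the entry that passed read 87.12, 67.75 and 87.46 CPM against 124.1, 183.5 and 177.5 CPM (log2 change -1.0 ± 0.16, edgeR adjusted p = 0.027). The symbol sits on a second entry too, and that one did not pass (log2 change -0.05, edgeR adjusted p = 0.923), so the 2 copies carry different values. Others of this role did not pass either: the rhodopsin kinase entries grk1 and grk1b had log2 changes of 0.30 and -1.30 (edgeR adjusted p = 0.514 and 0.0679), and the rod arrestin gene saga had -0.78 (edgeR adjusted p = 0.212). For the second recoverin entry rcvrn2 the value was -0.28 and for rgs9a it was -0.13 (edgeR adjusted p = 0.617 and 0.703). Within 4.5 months, replicate 1 was the lowest of the 3 fish for gnat1, pde6g, rcvrna and rgs9bp, yet still above all 3 fish of 6.0 months.

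Other rod genes had values of similar size that did not pass. The rod cyclic GMP channel entries cnga1 and cnga1a had log2 changes of -1.62 ± 0.32 and -1.24 ± 0.25 (edgeR adjusted p = 0.0521 and 0.0515). The transducin gamma gene gngt1 had -1.12 ± 0.25 and the transducin beta gene gnb1b had -1.09 ± 0.25 (edgeR adjusted p = 0.0589 and 0.0606). For pde6b, a catalytic subunit of the phosphodiesterase, 1 entry had -1.06 (edgeR adjusted p = 0.0561) and the other had -0.64 (edgeR adjusted p = 0.374). In all of these but the second pde6b entry the fish of 6.0 months did not overlap those of 4.5 months. By contrast the photoreceptor transcription factor genes crx, nrl and nr2e3 had values of -0.10, -0.45 and 0.00 on the log2 scale, each with overlapping fish.

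All 4 disc rim entries fell, and of these rom1 and rom1a went below the earlier levels in every fish. The rom1a entry read 424, 529.9 and 607.7 CPM at 6.0 months against 1211, 1567 and 1490 CPM at 4.5 months, a log2 change of -1.45 ± 0.21 (edgeR adjusted p = 0.0157). The rom1 entry read 454.3, 632 and 630.4 CPM against 1093, 1545 and 1475 CPM, a log2 change of -1.26 ± 0.22 (edgeR adjusted p = 0.0352). Means of the younger ages were 1218 CPM (1.5 months) and 1002 CPM (3.0 months) for rom1a and 1117 and 941.1 CPM for rom1, so the oldest fish stood well under all of them. For prph2b the fish of 6.0 months had 373.6, 337 and 326.9 CPM against 602.4, 763.1 and 718.2 CPM at 4.5 months (log2 change -1.01 ± 0.16, edgeR adjusted p = 0.027). In it 1 of the 3 oldest fish overlapped the younger range. The paralog prph2a was a return by its mean. It read 205.5, 242.6 and 179.2 CPM against a peak of 333.9, 489.3 and 439.2 CPM (log2 change -1.01 ± 0.18, edgeR adjusted p = 0.0365). Its means were 317.4 CPM at 1.5 and 242.4 CPM at 3.0 months. Reads shared between rom1 and rom1a, or between prph2a and prph2b, may have been split between the copies, since the rule for such reads was not given in the sources used here.

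Among cone genes, 2 of 23 tested members fell (opn1sw and opn1sw2) and 0 rose, against 0.425% and 0.174% of all genes. The list had a median of -0.37 on the log2 scale, 21 of 23 values under 0 and 5 members (21.7%) whose fish of 6.0 months all lay below those of 4.5 months, against 11.1% of all genes. The short-wave opsin gene opn1sw had the lowest p of all 124 calls. It read 233.8, 212.8 and 220.6 CPM at 6.0 months against 636.5, 740.9 and 630.3 CPM at 4.5 months, a log2 change of -1.59 ± 0.15 (edgeR adjusted p = 0.00629). Its call held in 11 of the 12 fits without 1 library. The course before that was uneven, with 760.9 ± 92.06 CPM at 1.5 months and 395 ± 61.56 CPM at 3.0 months (mean ± SD, n = 3 fish each). The level at 4.5 months was again near that of the youngest fish. The second short-wave opsin, opn1sw2, followed the same course without a new low: 484.6, 686.2 and 439.2 CPM at 6.0 months against 1051, 1058 and 934.1 CPM at 4.5 months (log2 change -0.92 ± 0.18, edgeR adjusted p = 0.0485). Its means were 926.1 CPM at 1.5 and 582.4 CPM at 3.0 months, and its call held in 3 of the 12 fits. Replicates 1 and 3 of 6.0 months lay under all younger fish, while replicate 2 lay between the fish of 3.0 months and those of 1.5 months.

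Cone genes outside the short-wave opsins varied more. The long-wave opsin entry opn1lw1 read 1176, 393 and 1424 CPM at 6.0 months against 2452, 3540 and 3556 CPM at 4.5 months and did not pass. For opn1lw1 the log2 change was -1.67 ± 0.41 (edgeR adjusted p = 0.0761). The unnamed entry LOC107385855, separated from opn1lw1 by 1 other gene in the reference table and picked out after its values were seen, did pass. It read 1390, 2259 and 1074 CPM against 3384, 5666 and 5634 CPM (log2 change -1.64 ± 0.31, edgeR adjusted p = 0.044). By class it was a return, with means of 1810 and 2056 CPM at 1.5 and 3.0 months. Cone transducin gnat2 read 2173, 1847 and 2150 CPM against 2859, 4387 and 4070 CPM (log2 change -0.87 ± 0.18, edgeR adjusted p = 0.0531). The cone phosphodiesterase gene pde6c and cone arrestin arr3a had values close to 0, at -0.08 and -0.14 on the log2 scale, with overlapping fish.

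**Figure D2:**
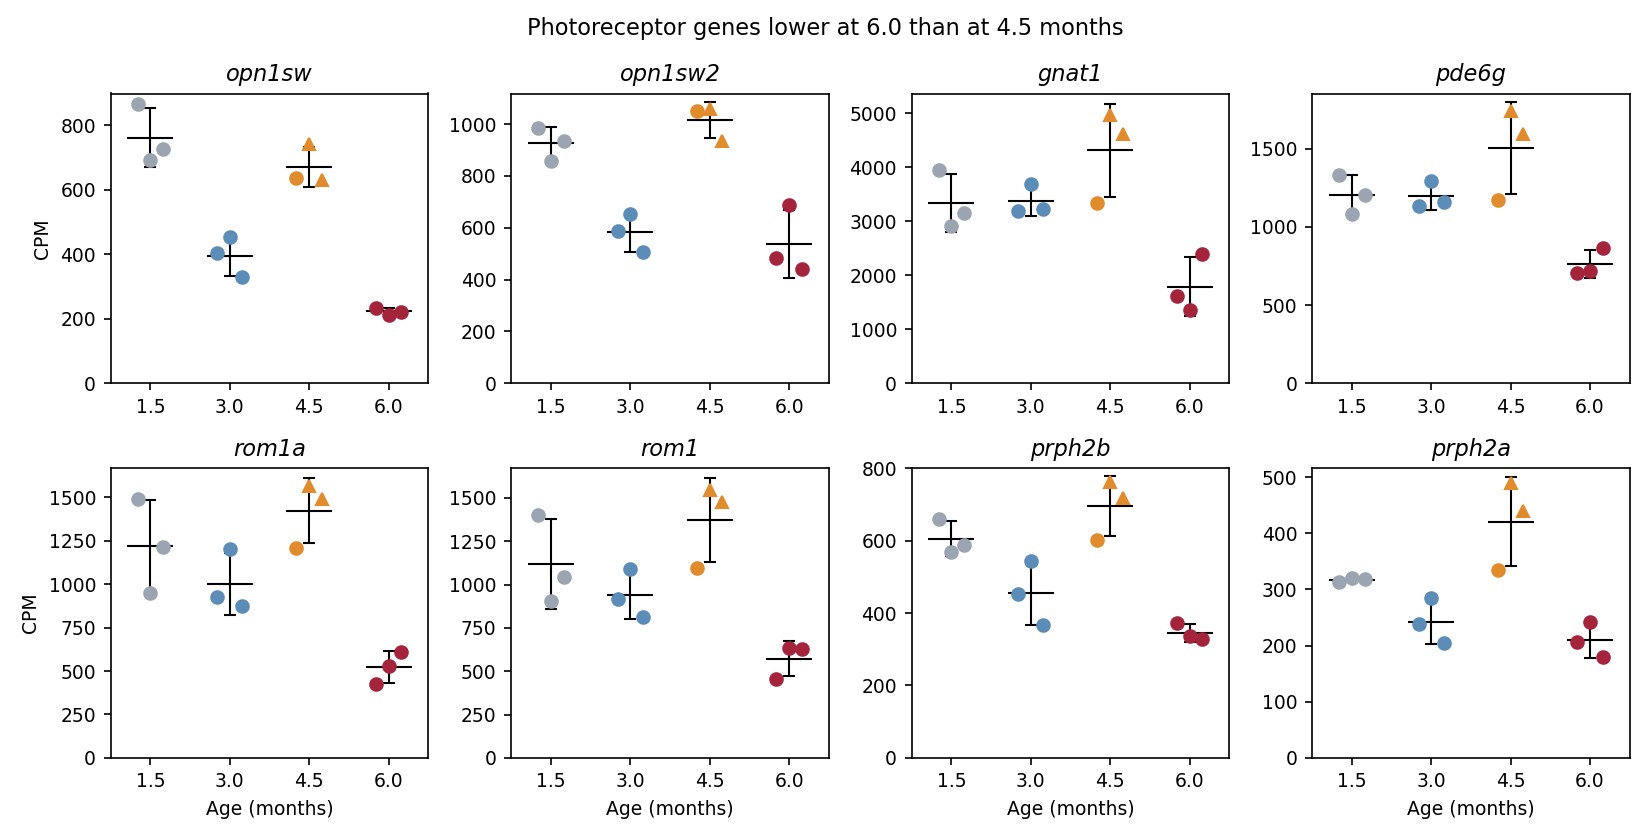
CPM of 8 photoreceptor genes in each of the 12 fish by age in months; points are fish, triangles are the Resub libraries of 4.5 months, and bars give the mean ± SD of 3 fish. In opn1sw, gnat1, pde6g, rom1a and rom1 all fish of 6.0 months lie below every younger fish, while for prph2a the mean at 6.0 months lies within the range of the younger fish and 1 fish (179.2 CPM) lies below it.

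The list of outer segment and connecting cilium genes had 5 falls among 48 tested members (the 4 disc rim entries and cabp4) and 0 rises, against 0.425% and 0.174% of all genes. Its median was -0.29 on the log2 scale. In 12 members (25%) the fish of 6.0 months all lay below those of 4.5 months, against 11.1% of all genes. The gene cabp4, for a calcium-binding protein of the photoreceptor synapse, read 51.29, 49.23 and 56.54 CPM at 6.0 months against 83.41, 96.14 and 91.25 CPM at 4.5 months, a log2 change of -0.79 ± 0.12 (edgeR adjusted p = 0.0159). That was a return, as the means were 56.75 and 68 CPM at 1.5 and 3.0 months, and the call held in 8 of the 12 fits without 1 library. Intraflagellar transport and BBSome genes, whose products carry cargo through the cilium, had 2 falls in 38 tested members, ttc8 and bbs5, against 0.425% of all genes. In 12 of them (31.6%) the fish of 6.0 months all lay below those of 4.5 months, against 11.1%. At 6.0 months ttc8 read 29.24, 34.56 and 35.46 CPM against 45.42, 71.1 and 59.89 CPM at 4.5 months (log2 change -0.83 ± 0.16, edgeR adjusted p = 0.0412). For bbs5 the values were 41.72, 37.01 and 46.39 CPM against 59.66, 69.68 and 67.47 CPM (log2 change -0.65 ± 0.12, edgeR adjusted p = 0.0439). Both encode BBSome subunits, and ttc8 was a new low while bbs5 was in neither class. Against the average of the younger ages ttc8 did not pass at 6.0 months (edgeR adjusted p = 0.178).

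The elongase gene elovl4, whose product builds very long fatty acids of photoreceptor membranes, read 472.7, 462.4 and 512.1 CPM at 6.0 months against 1029, 1255 and 1147 CPM at 4.5 months. For elovl4 the log2 change was -1.25 ± 0.15 (edgeR adjusted p = 0.00921). Its younger means were 823.5 CPM at 1.5 and 774.4 CPM at 3.0 months, so the oldest fish stood apart on the low side. Smaller new lows were seen for abcd3, a transporter of fatty acids into peroxisomes (log2 change -0.76 ± 0.10, edgeR adjusted p = 0.0142), and for abcg1, a cholesterol exporter (-0.82 ± 0.16, edgeR adjusted p = 0.0485). The fatty acid desaturase gene scd also fell (log2 change -0.69 ± 0.12, edgeR adjusted p = 0.0372). Here scd was chosen after its values were seen. Against the average of the younger ages elovl4 passed at 6.0 months (edgeR adjusted p = 0.0425). There abcd3 and abcg1 did not pass (edgeR adjusted p = 0.151 and 0.156). The call of elovl4 held in 9 of the 12 fits without 1 library and that of abcd3 in 9, but those of abcg1 and scd in 2 each.

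The clusterin-like gene clul1, known from photoreceptors, fell to 564, 633.1 and 655.7 CPM at 6.0 months against 1484, 1783 and 1695 CPM at 4.5 months (log2 change -1.42 ± 0.16, edgeR adjusted p = 0.00921). Its younger means were 1157 and 923.2 CPM at 1.5 and 3.0 months. All 3 fish of 4.5 months were the highest of the 12 and all 3 of 6.0 months the lowest. The most abundant entry of the whole table, LOC107391139, has no name in the files or the reference table and was picked out after its values were seen. It read 9533, 11127 and 13496 CPM at 6.0 months against 29137, 29732 and 28263 CPM at 4.5 months, with means of 27909 CPM at 1.5 and 20806 CPM at 3.0 months (log2 change -1.35 ± 0.19, edgeR adjusted p = 0.0157). The SD over 3 fish was 1994 CPM at 6.0 months and 739.2 CPM at 4.5 months, both far smaller than the difference of the means.

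New lows were also found in genes with other roles. The gene vip, a neuropeptide of amacrine cells, read 33.8, 32.36 and 32.55 CPM at 6.0 months against 67.08, 56.61 and 64.16 CPM at 4.5 months (log2 change -0.93 ± 0.11, edgeR adjusted p = 0.00921). The vip call held in 10 of the 12 fits without 1 library. It was the only call among 25 tested amacrine genes, against 0.425% of all genes called lower. The median of the amacrine list was 0.02 on the log2 scale. The growth factor gene mdk, picked out after its values were seen, read 34.93, 28.35 and 46.26 CPM against 80.41, 75.37 and 70.3 CPM (log2 change -1.05 ± 0.16, edgeR adjusted p = 0.0213). That followed means of 75.65 and 68.53 CPM at 1.5 and 3.0 months. Cytosolic malate dehydrogenase mdh1ab fell by 1.46 ± 0.26 on the log2 scale (edgeR adjusted p = 0.0392). It went to 145.1 ± 48.92 CPM at 6.0 months against 399.2 ± 111 CPM at 4.5 months (mean ± SD, n = 3 fish each). The call of mdk held in 9 of the 12 fits without 1 library and that of mdh1ab in 3.

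The remaining genes that the naming rule took among the new lows were luzp2 (33.43, 33.5 and 33.6 CPM at 6.0 months against 53.77, 52.57 and 52.7 CPM at 4.5 months), hs3st3b1a, fibcd1 and si:ch73-366l1.5. The fish of luzp2, a leucine zipper gene, were nearly identical within each age, and its log2 change was -0.66 ± 0.09 (edgeR adjusted p = 0.0157). The heparan sulfate sulfotransferase gene hs3st3b1a, the chitin-binding receptor gene fibcd1 and si:ch73-366l1.5 fell by 1.12 ± 0.16, 1.34 ± 0.19 and 1.78 ± 0.25 on the log2 scale (edgeR adjusted p = 0.0157 for each). In all 3 genes the Resub libraries were the highest of the 12. Keratocan, kera, a proteoglycan of corneal stroma, had a fall exceeded in size only by that of ndrg1 among the 124 calls. It had 118.1, 87.85 and 150.4 CPM at 6.0 months against 290.9, 811.5 and 807.2 CPM at 4.5 months. For kera the log2 change was -2.42 ± 0.39 (edgeR adjusted p = 0.0285). The source of the kera RNA was not tested, and values of other connective tissue markers are given beside it. The gene lum, a related corneal proteoglycan, read 0.8237, 0.2847 and 3.958 CPM against 1.115, 0.6091 and 0.5543 CPM. The gene dcn read 8.116, 6.984 and 20.5 CPM against 12.36, 3.736 and 5.068 CPM. For the collagen gene col1a1a the values were 2.52, 2.771 and 41.86 CPM against 7.418, 2.842 and 1.703 CPM. For col1a2 they were 8.915, 11.75 and 44.85 CPM against 17.79, 9.299 and 11.23 CPM. The fish of 4.5 months replicate 1 carried much less kera than the Resub libraries, and the part of the tag in this fall was not tested.

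Falls that returned to the earlier level were led by ndrg1, a gene switched on by low oxygen and other stress. It read 119.2, 144 and 143 CPM at 6.0 months against 202.2, 1161 and 1133 CPM at 4.5 months, with means of 114 CPM at 1.5 and 117.7 CPM at 3.0 months (log2 change -2.62 ± 0.50, edgeR adjusted p = 0.0485). The peak lay almost wholly in the Resub libraries, replicate 1 stood less than 2-fold above the oldest fish, and the call held in only 2 of the 12 fits without 1 library. The other named returns were smaller and had tighter fish. The J-protein gene dnajb14 of the endoplasmic reticulum read 89.88, 93.51 and 88.49 CPM against 128.6, 154.9 and 150.3 CPM (log2 change -0.67 ± 0.10, edgeR adjusted p = 0.0159). Log2 changes of -0.65 ± 0.10 for dgcr2, -0.58 ± 0.10 for the N-glycan mannosyltransferase gene alg11, -0.58 ± 0.10 for the nucleobindin gene nucb2 and -0.48 ± 0.09 for the ubiquitin ligase gene amfr went with edgeR adjusted p = 0.0213, 0.0287, 0.0372 and 0.0492. Their means at 6.0 months were 90.63 (dnajb14), 149.1 (dgcr2), 41.66 (alg11), 66.91 (nucb2) and 79.22 CPM (amfr), beside 89.99, 149.4, 42.8, 70.5 and 81.48 CPM at 3.0 months and higher means of 110, 204.4, 51.42, 79.6 and 94.83 CPM at 1.5 months. These falls thus ended near the level of 3.0 months and under that of 1.5 months.

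Of the 24 falls in neither class, 2 remained above all 6 younger fish at 6.0 months. One was nr1d4a, a Rev-erb type nuclear receptor of the clock, with 7.728, 9.375 and 9.289 CPM at 6.0 months against 28.1, 22.56 and 36.31 CPM at 4.5 months (log2 change -1.72 ± 0.24, edgeR adjusted p = 0.0157). The other was csgr19h18orf21, with 25.53, 20.42 and 25.85 CPM against 53.27, 91.87 and 95.68 CPM (log2 change -1.75 ± 0.23, edgeR adjusted p = 0.0133). Their means at 1.5 and 3.0 months were 3.615 and 4.933 CPM for nr1d4a and 14.85 and 10.99 CPM for csgr19h18orf21, so both had fallen most of the way back from a peak. Among the others, aqp9, an aquaglyceroporin gene, read 66.94, 67.43 and 66.32 CPM against 100.7, 211.2 and 207.7 CPM (log2 change -1.37 ± 0.25, edgeR adjusted p = 0.0404). The heparan sulfate sulfotransferase gene hs6st3 read 40.7, 53.16 and 59.63 CPM against 73.95, 146.2 and 146.9 CPM (log2 change -1.26 ± 0.23, edgeR adjusted p = 0.0412). The gene il34, whose product binds the microglial receptor Csf1r, read 1.018, 1.177 and 1.434 CPM against 2.821, 3.167 and 3.702 CPM (log2 change -1.41 ± 0.25, edgeR adjusted p = 0.0372). For aqp9 and hs6st3 the Resub libraries again held the peak.

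Most rises were returns from a low at 4.5 months. The clock repressor gene per3 read 197.5, 252.8 and 185.3 CPM at 6.0 months against 123.3, 69.92 and 63.11 CPM at 4.5 months, with means of 225.4 CPM at 1.5 and 224.3 CPM at 3.0 months. For per3 the log2 change was 1.31 ± 0.23 (edgeR adjusted p = 0.036). The level was thus like that of both younger ages again, and replicate 1 was the least low of the fish of 4.5 months. The death effector domain gene dedd2 read 145.4, 136.8 and 150.5 CPM against 74.72, 75.37 and 70.2 CPM (log2 change 0.97 ± 0.13, edgeR adjusted p = 0.0103). That followed means of 94.27 and 147.8 CPM at 1.5 and 3.0 months. In ampd2b, an AMP deaminase gene, the fish of 6.0 months read 58.51, 62.29 and 49.82 CPM against 34.9, 31.02 and 31.72 CPM (log2 change 0.81 ± 0.12, edgeR adjusted p = 0.0157). Calls of dedd2 and ampd2b held in 9 of the 12 fits without 1 library each, and that of per3 in 2.

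Several rising genes encode parts of the synapse or of axonal transport, a grouping made after the calls were known. The active zone gene rims4 read 98, 104.4 and 80.71 CPM at 6.0 months against 51.24, 54.23 and 50.82 CPM at 4.5 months, after means of 85.34 and 90.35 CPM at 1.5 and 3.0 months. For rims4 the log2 change was 0.86 ± 0.13 (edgeR adjusted p = 0.0213). The low of rims4 at 4.5 months held in all 3 fish alike, the Resub libraries included. The calcium sensor of vesicle release syt7 rose by 1.03 ± 0.19 and the tomosyn gene stxbp5l by 0.88 ± 0.17 on the log2 scale (edgeR adjusted p = 0.0412 and 0.0485). The kinesin gene kif1aa rose by 0.81 ± 0.16 and the cyclic AMP sensor rapgef4 by 0.78 ± 0.14 (edgeR adjusted p = 0.0492 and 0.0372). All 4 were returns. The active zone gene rimbp2 read 166.4, 184.6 and 177.5 CPM against 94.77, 110.2 and 112.1 CPM (log2 change 0.74 ± 0.12, edgeR adjusted p = 0.026). The postsynaptic scaffold gene shank3 rose by 0.88 ± 0.17 on the log2 scale (edgeR adjusted p = 0.0493). Both were in neither class. In the 12 fits without 1 library the call of rims4 held in 7 and that of rimbp2 in 5. Those of syt7, stxbp5l, kif1aa, rapgef4 and shank3 held in 2 each. On the list of synaptic vesicle and transmission genes, rimbp2 was the only call among 57 tested members, against 0.174% of all genes called higher. The list's median was 0.12 on the log2 scale. Of its members, 17 (29.8%) had all fish of 6.0 months above those of 4.5 months against 9.97% of all genes, and 7 had the pattern of a rising return.

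Among the other named returns, the adaptor gene shc1 rose by 0.75 ± 0.12 and the transcription factor gene hivep3 by 0.81 ± 0.13 on the log2 scale (edgeR adjusted p = 0.0239 and 0.0285). The kinase gene sik2 rose by 0.86 ± 0.16 and the sphingolipid exporter gene mfsd2b by 0.92 ± 0.16 (edgeR adjusted p = 0.0424 and 0.036). For sik2 the means were 282.6 ± 51.7 CPM at 6.0 months against 155.7 ± 18.21 CPM at 4.5 months (SD, n = 3 fish each), with 298 and 328.5 CPM at 1.5 and 3.0 months. The RNA-binding gene rbm14b rose by 0.94 ± 0.19 (edgeR adjusted p = 0.0494) and was in neither class.

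New highs were few. Palmdelphin, palmd, had the largest rise among called genes with a symbol, at 19.14, 30.86 and 19.24 CPM in the fish of 6.0 months against 3.277, 4.609 and 4.039 CPM in those of 4.5 months. For palmd the log2 change was 2.54 ± 0.31 (edgeR adjusted p = 0.00921). Its earlier means were 2.427 CPM at 1.5 and 11.39 CPM at 3.0 months, so the fish of 4.5 months lay nearer the youngest than those of 3.0 months. The sarcomere gene myot read 48.7, 51.79 and 35.88 CPM against 25.78, 20.63 and 17.92 CPM (log2 change 1.08 ± 0.19, edgeR adjusted p = 0.0387). Skeletal muscle genes as a list had 0 edgeR calls in 28 tested members (3 at an unadjusted p under 0.05, 0 by DESeq2), against 0.174% of all genes called higher. Their median was 0.41 on the log2 scale, with 6 of 28 values under 0 against 49.4% of all genes. They summed to 194.6, 236.3 and 241 CPM against 203.8, 169 and 152.4 CPM. The NMDA receptor subunit gene grin3ba read 10.08, 7.724 and 7.169 CPM against 4.323, 2.254 and 3.247 CPM (log2 change 1.35 ± 0.25, edgeR adjusted p = 0.0412), with 2.74 and 2.911 CPM at 1.5 and 3.0 months. The other named new highs were rsrp1, an arginine- and serine-rich protein gene (0.78 ± 0.14), the actin regulator gene enah (0.67 ± 0.13) and mtus2a (0.67 ± 0.13), with edgeR adjusted p = 0.0404, 0.0485 and 0.0485. Against the average of the younger ages palmd, grin3ba and rsrp1 passed at 6.0 months (edgeR adjusted p = 0.0135, 0.0252 and 0.0469). There myot, enah and mtus2a did not pass (edgeR adjusted p = 0.0691, 0.256 and 0.213). In the 12 fits without 1 library the call of palmd held in 9. Those of myot and rsrp1 held in 4 each, and those of grin3ba, enah and mtus2a in 2 each.

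**Figure D3:**
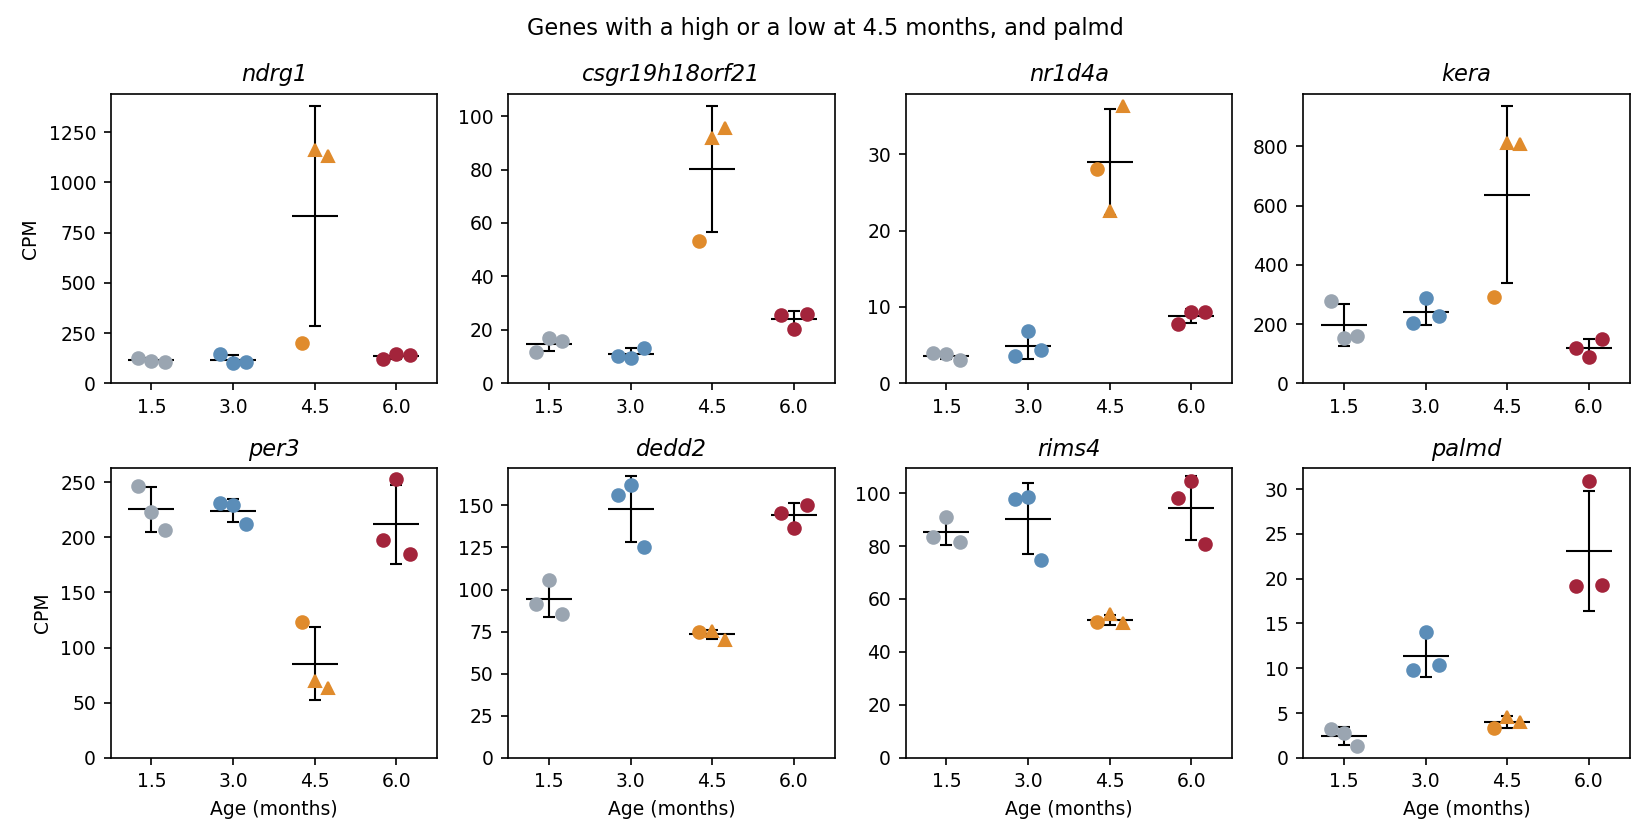
CPM of 8 genes in each of the 12 fish by age in months, drawn as in the plot of photoreceptor genes (triangles are the Resub libraries; bars are the mean ± SD of 3 fish). The peaks of ndrg1 and kera at 4.5 months lie in the 2 Resub libraries, the means of per3, dedd2 and rims4 at 6.0 months are back within the range of the younger fish, and palmd at 6.0 months lies above all other fish.

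Circadian clock genes gave 1 fall and 1 rise in 40 tested members, nr1d4a and per3, against 0.425% and 0.174% of all genes. The median of the list was 0.24 on the log2 scale. In 9 members (22.5%) all fish of 6.0 months lay above those of 4.5 months, against 9.97% of all genes. In 3 members (7.5%) they all lay below, against 11.1% of all genes. The pattern of a rising return was held by 5 members, against 2.96% of all genes. Values in the direction of per3 that did not pass were log2 changes of 1.23 ± 0.39 for per1 and 0.80 ± 0.25 for nr1d2b (edgeR adjusted p = 0.148 and 0.137). The gene per1 read 69.51, 88.46 and 50.48 CPM at 6.0 months against 51.33, 15.78 and 22.01 CPM at 4.5 months. For nr1d2b the values were 257, 259.6 and 238.2 CPM against 221.4, 100.1 and 112 CPM. For nfil3, a transcription repressor of the clock output, the fish read 16.67, 12.32 and 18.17 CPM against 21.34, 51.31 and 50.4 CPM (log2 change -1.38 ± 0.30, edgeR adjusted p = 0.0562). In per1, nr1d2b and nfil3, as in per3, replicate 1 of 4.5 months was the fish nearest to those of 6.0 months. The median of the list was 0.03 without the Resub libraries, and the time of dissection was not tested.

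Energy genes had small values of the same sign in most members. Nuclear-encoded oxidative phosphorylation genes had a median of -0.29 on the log2 scale, with 73 of 77 tested members under 0. Mitochondrial ribosomal protein genes had a median of -0.27 with 75 of 76 under 0, against 49.4% of all genes. Neither list held an edgeR call, against 0.599% of all genes called. At an unadjusted p under 0.05 edgeR had 12 and 24 members lower and 0 higher, and DESeq2 called 3 and 7 lower. Of their members, 17 and 26 had all fish of 6.0 months below those of 4.5 months, against 11.1% of all genes. Summed oxidative phosphorylation RNA was 7569, 4810 and 7831 CPM at 6.0 months against 9443, 8238 and 7119 CPM at 4.5 months, where the groups overlap. At 6.0, 4.5 and 3.0 months, but not at 1.5 months, the lowest sum was in the library with the least cytosolic ribosomal protein RNA, whose part in the result was not tested.

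Microglia and macrophage genes had the opposite sign. Their list had a median of 0.70 on the log2 scale, 8 of 38 tested members under 0 and 0 edgeR calls, against 0.599% of all genes called. At an unadjusted p under 0.05 edgeR had 16 members higher, and DESeq2 called 6 higher. The median was 0.29 without the Resub libraries, and it was 0.01 between replicates 1 and 3 of 6.0 months and replicate 1 of 4.5 months, the libraries with more ribosomal protein RNA. In 12 members (31.6%) all fish of 6.0 months lay above those of 4.5 months against 9.97% of all genes. In 9 members the fish of 6.0 months were the 3 highest of all 12, against 1.4% of all genes. The summed level was 384.7, 518.8 and 336.1 CPM at 6.0 months against 373.7, 292.2 and 234.1 CPM at 4.5 months, so the groups overlap through replicate 1 of 4.5 months. The receptor gene csf1r read 12.31, 16.47 and 13.23 CPM at 6.0 months against 8.897, 8.507 and 6.137 CPM at 4.5 months (log2 change 0.84 ± 0.21, edgeR adjusted p = 0.0774). Its paralog csf1ra read 7.074, 16.76 and 6.058 CPM against 5.233, 4.304 and 3.445 CPM (log2 change 1.2 ± 0.37, edgeR adjusted p = 0.135). The leukocyte gene ptprc had a log2 change of 0.83 ± 0.36 (edgeR adjusted p = 0.272).

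**Figure D4:**
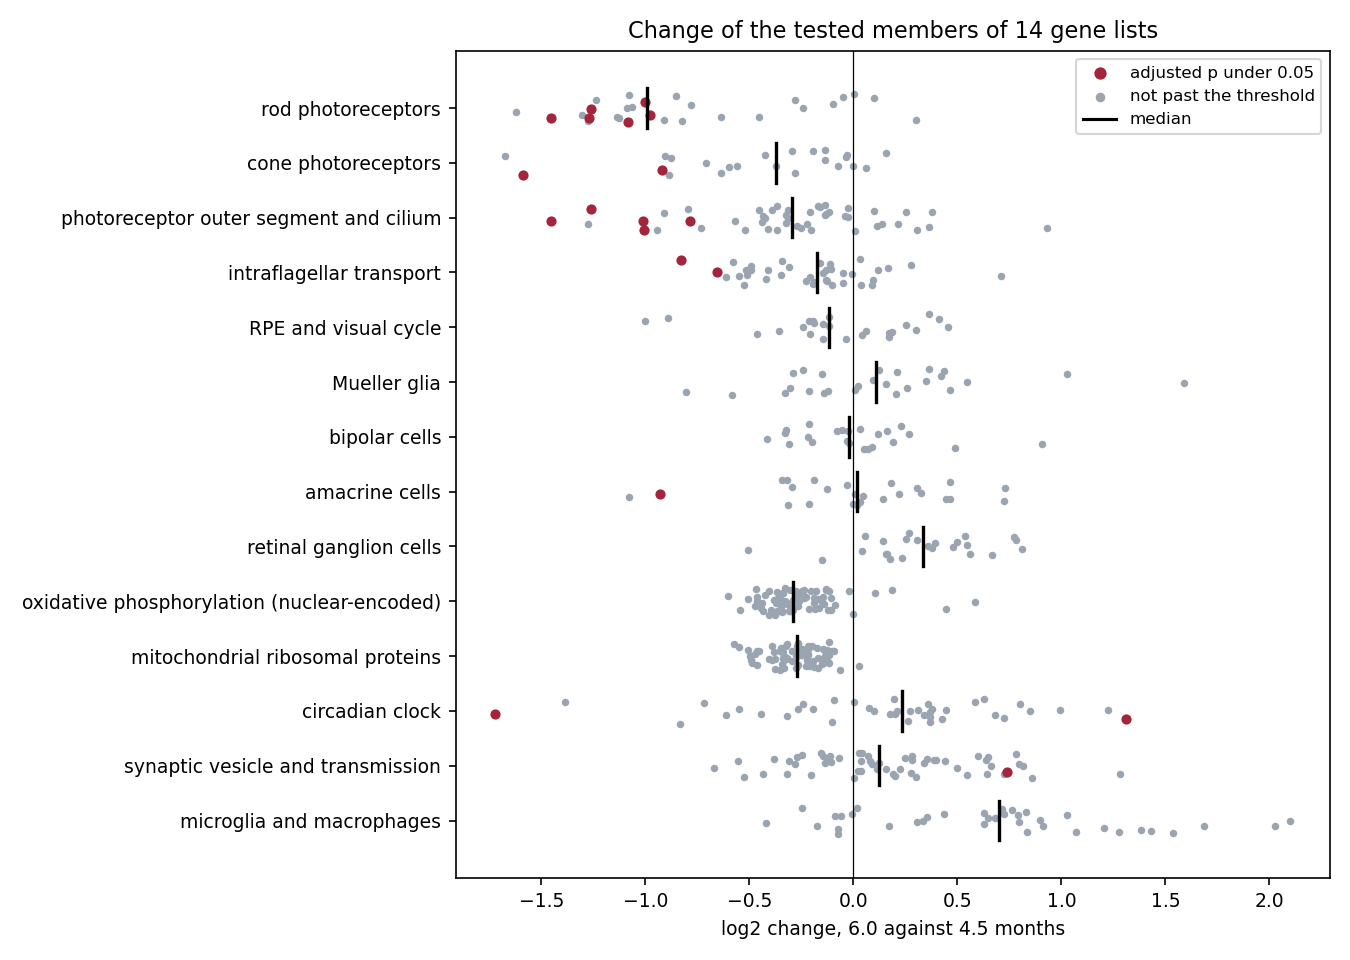
Log2 change at 6.0 against 4.5 months of every tested member of 14 gene lists; red points passed the threshold, grey points did not, and black bars are the medians. Rod genes (median -0.99) and microglia genes (median 0.70) lie farthest from 0 of the lists drawn, oxidative phosphorylation and mitochondrial ribosomal protein genes lie in narrow bands under 0, and RPE, bipolar and amacrine genes lie around 0.

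Other cells of the tissue held few calls. Only 0.599% of all genes were called, so 0 calls in lists of this size is no result about these cells. RPE and visual cycle genes had 0 edgeR calls in 24 tested members (3 at an unadjusted p under 0.05, 2 called by DESeq2) and a median of -0.12 on the log2 scale. The gene rpe65, for the isomerase of the visual cycle, read 3586, 1959 and 3241 CPM at 6.0 months against 5047, 2243 and 2244 CPM at 4.5 months (log2 change -0.12 ± 0.39, edgeR adjusted p = 0.925). Mueller glia, bipolar, horizontal and ganglion cell lists had 0 edgeR calls in 26, 23, 10 and 24 tested members, with medians of 0.11, -0.02, 0.19 and 0.33. At an unadjusted p under 0.05 they had 1, 3, 0 and 3 members, and DESeq2 called 0, 1, 0 and 0. The glial filament gene gfap had a log2 change of 0.43 ± 0.30 (edgeR adjusted p = 0.516). The zinc transporter gene slc30a8 had one of 1.17 ± 0.48 (388.7, 506.3 and 300.7 CPM against 307.6, 112.6 and 110.5 CPM; edgeR adjusted p = 0.257). The myelin genes mbpb, plp1b and mpz had log2 changes of -0.35, -0.38 and -0.97 with overlapping fish. The whole list of oligodendrocyte and myelin genes had 0 edgeR calls, a median of -0.04 and 14 of 22 values under 0. Heme oxygenase hmox1 had no count at 1.5 and 3.0 months and read 0.6299, 2.202 and 0.3433 CPM at 6.0 months against 0.09101, 0.08121 and 0.0396 CPM at 4.5 months (edgeR adjusted p = 0.0936). In all, 20 of the 124 called genes belonged to any of the 44 lists and 104 to none.

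Because replicate 2 of 6.0 months and the Resub libraries of 4.5 months shared a low level of ribosomal protein RNA, the differences were also taken within each level, as differences of mean log2(CPM + 0.1). Melanin and pigment cell RNA was low in these libraries too, so the levels differ in more than ribosomal protein RNA. Among the low libraries (6.0 months replicate 2 against 4.5 months replicates 2 and 3) the median over the 88 falls was -0.92. Among the high ones (6.0 months replicates 1 and 3 against 4.5 months replicate 1) it was -0.76. Over the 36 rises these medians were 0.97 and 0.86. In all these falls and rises the fish of 6.0 months did not overlap those of 4.5 months. The sign of their differences within each level was therefore fixed in advance and is no check on the calls. Rod genes had medians of -1.21 and -0.51, cone genes of -0.46 and -0.17, and oxidative phosphorylation genes of -0.68 and -0.30. The medians of mitochondrial ribosomal protein genes were -0.52 and -0.31, of clock genes 0.44 and -0.04 and of microglia genes 1.46 and 0.01. The rod median was larger in size at the low level, and the microglia and clock medians were near 0 among the high libraries. In 19 of the 28 rod members the fish of 6.0 months all lay below those of 4.5 months. A rod median under 0 at both levels was therefore also fixed in advance and is no check. Replicate 1 of 4.5 months had the lowest value of its age in 56 of the 88 falls and the highest in 17 of the 36 rises, against 8929 and 8919 of all 20717 genes. With 2 or fewer fish a side, these values have no test.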

How the data were processed

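RNA of retina with RPE from 12 male killifish, 3 per age, was prepared with Nextera XT and sequenced on a NovaSeq S4, per the labels. The deposited table holds whole-number counts per gene with no normalization, for 25122 genes (751 with no count); a deposited table of normalized signal values was not used in any test. Even numbers made up 73.16% of the counts between 1 and 20, as they would if each pair of mates added 2 to a gene. The aligner, counting program, annotation and build are not given in the sources used here; coordinates and sequences are therefore left out. Column headers call the fish of 1.5 months 6 weeks old; ages follow the sample labels. The NfurGRZ-RIMD1 gene table gave symbols to 5257 of the 14589 genes listed under locus numbers; it may not be the authors' annotation.

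Counts were analysed with edgeR 4.0.16 in R 4.3.3: filterByExpr by age (minimum count 10, minimum total 15; 20717 genes, 99.98% of counts), TMM, and robust quasi-likelihood fits of all 12 libraries by age (8 residual degrees of freedom, biological coefficient of variation 0.306). The contrast was 6.0 minus 4.5 months, with Benjamini-Hochberg adjustment over all tested genes and a threshold of 0.05. The standard error of a log2 change is its size over the root of the F statistic, and CPM levels use TMM-scaled library sizes. A comparison of 3 against 3 fish has no exact permutation p under 0.1, so the tests rest on spread shared across genes and ages. The fit was also run on counts simulated independently for each library. These held none of the tag, lens RNA or ribosomal protein RNA differences of the real libraries.

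Named genes were the 15 largest falls and rises with a symbol and at least 5 CPM at either age, the 8 of lowest p in each class, list members past the threshold, and genes looked up by name; other calls are marked where they appear, and list members that did not pass were picked as examples after their values were seen. Members, gene lists, classes and alternatives were chosen with earlier results of these data known, so no list is independent evidence. Alternatives were DESeq2 1.42.0, its size factors, no filter, the 6 libraries alone, a replicate block, other class rules, and libraries left out.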

Additional observations from a re-analysis of the deposited data

How the results depend on the processing

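With DESeq2's size factors in edgeR the 7 counts (all calls, lower, higher, new lows, falling returns, new highs, rising returns; 124, 88, 36, 51, 13, 7 and 23 as reported) were 96, 69, 27, 43, 7, 6 and 18, and with no filter on low counts 110, 76, 34, 45, 9, 6 and 23. With the further demand of groups that do not overlap and a fold of at least 2 they were 47, 34, 13, 21, 4, 4 and 7. The DESeq2 test gave 1222, 655, 567, 201, 123, 92 and 234, so that 53.6% of calls were lower in place of 71%. Without the 3 libraries with lens RNA they were 203, 117, 86, 52, 41, 19 and 35 (57.6% lower), with 53 of the 124 calls kept. That fit leaves only the Resub libraries at 4.5 months, so tag and age cannot be told apart in it. In the fit of the 6 libraries alone and in that without the Resub libraries all 7 were 0. Leaving out 1 library at a time moved them over 0 to 1137, 0 to 663, 0 to 474, 0 to 150, 0 to 331, 0 to 85 and 0 to 258. Classed by age means, new lows, falling returns, new highs and rising returns were 42, 44, 7 and 28, and classed by tests in the fit 16, 31, 3 and 25. The cause of these moves was not tested, beyond the smaller number of fish in some fits.

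A replicate block gave 47, 35, 12, 22, 7, 1 and 10, keeping 44 of the 124 calls. Over 18 pairings of same-numbered fish the correlations of their deviations from the age means ran from -0.315 to 0.302, and 8 were over 0.1. Those of the 6.0 and 4.5 month fish ran from -0.0295 to 0.19, and 3 of these 6 libraries correlated best with their own number. With 3 fish per age, these correlations cannot tell whether fish of a number shared anything beyond it.

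Among genes looked up by name, none of them called, signs changed for aanat2 (log2 change -0.09 with the block and -0.22 without the Resub libraries; -0.75 to 0.40 with 1 library left out), fosb (-1.06 without the Resub libraries; -0.18 to 3.49), ciart (-0.02 without the Resub libraries), rpe65 (0.21 without the lens libraries; -0.31 to 0.38), plp1b (0.02; -0.79 to 0.03), tyrp1b (0.09; -0.71 to 0.31) and mbpb (-0.98 to 0.05). The rod list's median was -0.52 without the Resub libraries and -1.03 without the lens libraries, and the microglia list's 0.29 and 1.23. Leaving out the lens libraries keeps only the Resub libraries at 4.5 months. The values of that fit therefore cannot separate lens RNA from the tag. Depth was 34.44 to 50.27 M counts per library, and each call rests on 3 fish per age.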

Other observations

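Other gene groups at the same step held few calls. With only 0.599% of all genes called, few calls in lists of this size is no result about these groups. Cholesterol synthesis and uptake genes had a median of -0.23 on the log2 scale at 6.0 against 4.5 months, with 28 of 33 tested members under 0 and abcg1 as the only call; at an unadjusted p under 0.05 edgeR had 7 members lower and 1 higher, and DESeq2 called 6 lower. Endoplasmic reticulum stress genes, which fold and clear secreted proteins, had a median of -0.17 with 33 of 46 under 0 and 0 edgeR calls (9 lower and 3 higher at an unadjusted p under 0.05; 1 each by DESeq2). Glial stress genes had a median of 0.27 with 5 of 21 under 0 and 0 edgeR calls (0 lower and 6 higher at an unadjusted p under 0.05; 3 higher by DESeq2); stat3, a transcription factor of gliosis, read 220.8, 348.9 and 155.2 CPM at 6.0 months against 140.9, 137.4 and 120.5 CPM at 4.5 months (log2 change 0.86 ± 0.23, edgeR adjusted p = 0.0898). Extracellular matrix genes had kera as the only call in 95 tested members, against 0.425% of all genes called lower, with a median of 0.23.

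Lens genes had a median of 3.45 on the log2 scale with 1 of 29 members under 0 and 0 edgeR calls (1 at an unadjusted p under 0.05, 0 by DESeq2), with by far the highest summed level in replicate 1 of 6.0 months: the crystallin gene crygs read 5247, 1.291 and 1.212 CPM at 6.0 months against 233.9, 3.939 and 0.7127 CPM at 4.5 months.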
